A study of Homo sapiens with 8 samples.

Results

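The glycerolipid acyltransferases described here are 9 genes of the 63241 in the NCI-H716 tables: *GPAT3*, *GPAT4*, *GPAM*, *AGPAT1*, *AGPAT2*, *AGPAT5*, *LCLAT1*, *DGAT1* and *DGAT2*. They were chosen by name, and the set was picked because *GPAT3* transcripts were higher in cells treated with Z325 in both cell lines of the study. The values of *GPAT3* are therefore given as a description with no test, and the tests cover the other 8 genes. Of the 28043 genes used from the HCT116 count table, 6 are members. The other 3, *GPAM*, *AGPAT2* and *DGAT2*, lie beyond the point on chromosome 9 where the table used here ends and have NCI-H716 values only.

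RNA was sequenced from HCT116 and NCI-H716 cells, which are human colorectal cancer lines, as control or after treatment with Z325 (ZINC000101867325), a compound selected by docking to FGF receptors. Each of the 4 groups, HCT116 control, HCT116 Z325, NCI-H716 control and NCI-H716 Z325, had 2 libraries, which the study's text calls biological duplicates. About 100 cells went into each reaction, and the sources used here give no vehicle for the controls and no treatment time for the sequenced cells. The question is which transcripts of glycerolipid synthesis differed between treated and control cells.

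Glycerolipid synthesis adds fatty acids to a glycerol backbone 1 at a time. Glycerol-3-phosphate acyltransferases (GPAT3 and GPAT4 in the endoplasmic reticulum, GPAM on the outer mitochondrial membrane) make lysophosphatidate, and 1-acylglycerol-3-phosphate acyltransferases (AGPATs) turn it into phosphatidate, the branch point between phospholipids and storage fat. Phosphatidate is dephosphorylated to diacylglycerol, which DGAT1 and DGAT2 acylate to triglyceride, the lipid of droplets. In the intestine this last acylation also takes part in repackaging dietary fat.

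The libraries held 3434620 to 13396225 counts in HCT116, over the listed genes, and 10210239 to 19738840 in NCI-H716. HCT116 Z325 replicate 2 was the shallowest library. As a check of the cell lines, *EPCAM*, an epithelial surface marker, reached a mean of 1863 TPM (transcripts scaled by length and depth) in HCT116 control cells and 28.9 in NCI-H716 control cells. TPM was scaled over the listed genes alone in HCT116 and over all genes in NCI-H716, so the lines are not on the same scale here. *GCG*, the enteroendocrine gene for glucagon and GLP-1, averaged 2131 TPM in NCI-H716 control cells and was at 0 in HCT116. The epithelial list summed to 431 to 444 TPM in control and 362 to 367 TPM in treated NCI-H716 libraries, and to 1765 to 1961 and 1820 to 1923 TPM in HCT116. In NCI-H716, 6 of the 10 markers had a mean of at least 1 TPM. Most of the sum there was *KRT8* and *KRT18*, at 186 and 212 TPM in control cells. *GPA33*, *CDH1*, *KRT20* and *CDX1* averaged 0.5, 0.045, 0.02 and 0 TPM in NCI-H716 control cells. Only 4 of the 10 epithelial markers were listed in HCT116, and its sum is nearly all *EPCAM*. The other listed ones, *VIL1*, *GPA33* and *CDX1*, averaged 0.016, 0.075 and 0 TPM in HCT116 control cells. The leukocyte, endothelial and adipocyte marker lists each summed to at most 0.92 TPM in every library. These lists were partial in HCT116, with 2 of 4 leukocyte, 1 of 3 endothelial and 3 of 4 adipocyte markers listed. Of the fibroblast and enteroendocrine markers, 2 of 5 and 4 of 6 were listed there. Of 5 fibroblast markers, *LUM* and *COL3A1* were above 1 TPM in NCI-H716, while *COL1A1* was at 0 in both control libraries. The list summed to 236 to 260 TPM in control and 192 to 223 TPM in treated libraries. Its 2 main markers moved in opposite directions. The mean of *LUM* went from 172 to 107 TPM and that of *COL3A1* from 75.2 to 99.9 TPM. The 6 enteroendocrine markers, of which 5 were above 1 TPM in NCI-H716, summed there to 1996 to 2457 TPM in control and 1534 to 1744 TPM in treated libraries. In HCT116, the single enteroendocrine marker above 1 TPM was *SCG2*, and its list summed to 24.0 to 25.2 TPM in control and 15.3 to 19.8 TPM in treated libraries. The part of these shifts in the values below was not tested.

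Promoter sequences are shown for the member on which the set was chosen and for a pair of acyltransferases with other patterns. They come from the RefSeq promoter table of build GRCh38.p14, which held 5 of the 9 members, and each is the stretch before the first annotated exon in the 250 bases ahead of the RefSeq start. The capitals mark matches to the motifs searched.
GPAT3, chr4:83535857-83535913, plus strand: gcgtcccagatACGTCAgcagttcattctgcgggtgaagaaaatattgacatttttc
LCLAT1, chr2:30446996-30447225, plus strand: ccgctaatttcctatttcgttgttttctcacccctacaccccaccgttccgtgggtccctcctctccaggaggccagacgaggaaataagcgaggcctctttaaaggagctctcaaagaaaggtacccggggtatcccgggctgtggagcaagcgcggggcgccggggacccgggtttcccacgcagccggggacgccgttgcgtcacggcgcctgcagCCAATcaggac
AGPAT1, chr6:32178109-32178358, minus strand: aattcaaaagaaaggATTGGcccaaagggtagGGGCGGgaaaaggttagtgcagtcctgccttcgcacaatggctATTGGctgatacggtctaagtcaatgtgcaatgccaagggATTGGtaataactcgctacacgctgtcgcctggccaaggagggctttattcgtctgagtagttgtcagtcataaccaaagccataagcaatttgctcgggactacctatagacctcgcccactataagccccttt

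In the *GPAT3* sequence the capitals are TGACGT read on the reverse strand, a core motif of the cAMP response element. These letters, on either strand, stand in 7.10% of the 35116 promoter windows in the table. The rest of the *GPAT3* window, which overlaps exons, held 1 match to the GC box GGGCGG, present in 42.6% of windows. The *LCLAT1* sequence carries 1 CCAAT box (CCAAT, in 32.0% of windows), and the *AGPAT1* sequence carries 3 on the reverse strand and 1 GC box. None of the 3 windows held TGACNNNGC, the core of the antioxidant response element, which stands in 10.9% of windows. None held the E-box CACGTG (6.34% of windows), the AP-1 site TGANTCA (6.57%), the nuclear receptor core AGGTCA (12.1%), the amino acid response motif TGATGNAA (3.14%) or TATAAA (10.7%). All motifs were searched on both strands and may overlap each other. A match describes the letters of the window and not a bound site.

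*GPAT3* (ENSG00000138678) lies on the plus strand of chromosome 4 from base 83535914 to 83605875 (GRCh38) and shares no exon base with another annotated gene. In HCT116 it gave 70.8 and 76.8 CPM (counts scaled by depth with the TMM method) in control libraries, whereas treated libraries gave 135 and 171 CPM. In NCI-H716 the values were 32.0 and 35.01 CPM in control and 80.8 and 77.8 CPM in treated libraries. Both treated libraries lay above both controls in each line, as the choice of the gene implies. The fitted ratio of treated to control was 2.07-fold in HCT116, a log2 fold change of 1.05 (standard error, SE, 0.18, 95% interval 0.64 to 1.45), and 2.37-fold in NCI-H716, a log2 fold change of 1.24 (SE 0.18, 0.85 to 1.63). The intervals of *GPAT3* describe the fit and are no test, because the gene was chosen by its rise. In these bulk libraries, more cells with the transcript and more transcript per cell cannot be told apart.

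The rise of *GPAT3* was among the larger ones in both lines without being extreme. Of the 6491 genes tested in HCT116, 462 (7.12%) had a larger log2 fold change, as did 272 of the 14142 tested in NCI-H716 (1.92%). Leaving out 1 library at a time gave log2 fold changes of 0.90 to 1.20 in HCT116 and 1.19 to 1.32 in NCI-H716. The fitted difference between the lines, HCT116 minus NCI-H716, was -0.18 on the log2 scale (SE 0.24, interval -0.71 to 0.34), also given as a description.

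**Figure D1:**
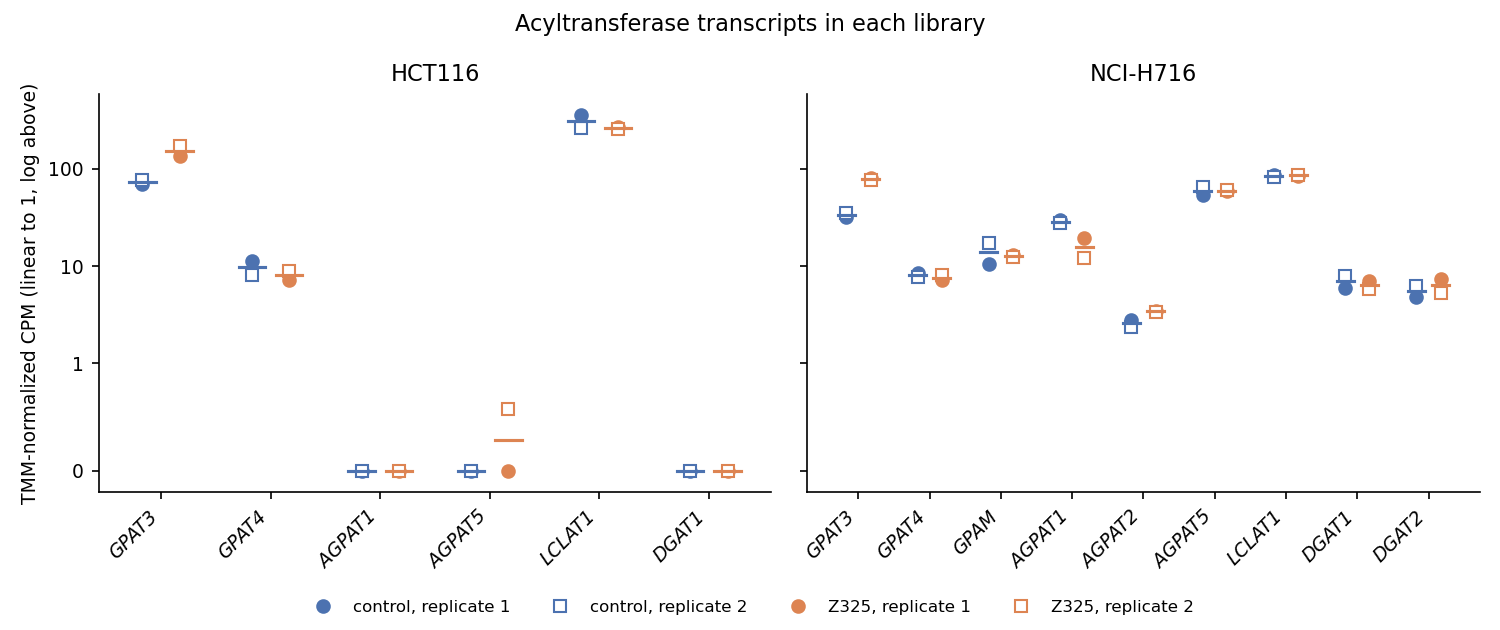
Each point is 1 library, with its TMM-normalized CPM on the vertical axis (linear to 1, logarithmic above) and the acyltransferases of each cell line on the horizontal axis; bars mark the means of 2 libraries, blue for control and orange for Z325. *GPAT3* was between 70.8 and 76.8 CPM in HCT116 control libraries and between 135 and 171 CPM in treated ones, while *AGPAT1*, *AGPAT5* and *DGAT1* were at or near 0 in HCT116.

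The other members of the first step showed no change past the threshold. *GPAT2*, a further enzyme of this step outside the set, was named after its values were seen. It averaged 2.21 CPM in HCT116 control and 2.28 CPM in treated cells (log2 fold change -0.14, SE 0.95, adjusted p = 0.958 by edgeR). In NCI-H716 *GPAT2* did not pass the low-count filter. *GPAT4* (ENSG00000158669, chromosome 8, 41577187 to 41625001, plus strand), the closest relative of *GPAT3*, read 11.4 and 8.13 CPM in HCT116 control and 7.12 and 8.88 CPM in treated libraries. In NCI-H716 it read 8.56 and 7.76 CPM in control and 7.18 and 7.99 CPM in treated libraries. The groups overlapped in both lines. Its log2 fold change was -0.30 in HCT116 (SE 0.37, interval -1.15 to 0.54, adjusted p = 0.679 by edgeR's quasi-likelihood test) and -0.10 in NCI-H716 (SE 0.28, -0.72 to 0.51, adjusted p = 0.886 by edgeR). The difference of the *GPAT4* response between the lines was -0.19 (SE 0.47, adjusted p = 0.943 by edgeR), where 0.0654% of 7642 genes passed the test of this difference. On 31 to 157 counts per HCT116 library, the interval of *GPAT4* in that line still holds log2 fold changes from -1.15 to 0.54.

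*GPAM* (ENSG00000119927, chromosome 10, 112149865 to 112215377, minus strand), the mitochondrial glycerol-3-phosphate acyltransferase, was measured in NCI-H716. It read 10.4 and 17.3 CPM in control and 12.9 and 12.5 CPM in treated libraries, and the treated values lay between the controls. Its log2 fold change was -0.11 (SE 0.28, interval -0.74 to 0.51, adjusted p = 0.875 by edgeR).

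*GPAT3* was already the main transcript of this step in NCI-H716 control cells. Per unit length, the summed TPM of *GPAT3*, *GPAT4* and *GPAM* in NCI-H716 was 13.6 and 14.7 in control libraries and 29.9 and 28.3 after treatment. The means were 14.1 ± 0.813 and 29.1 ± 1.12 TPM (SD, n = 2), a ratio of 2.06. *GPAT3* made up 80.2% ± 3.46 of the sum in control and 91.1% ± 0.508 in treated cells (SD, n = 2), a description that follows its own rise. The ratio of *GPAT3* to *GPAT4*, both in TPM, was 13.7 and 20.7 in HCT116 control libraries and 41.6 and 42.2 in treated ones. In NCI-H716 this ratio was 10.6 and 10.2 in control and 22.1 and 27.3 in treated libraries. In each of the 8 libraries *GPAT3* thus exceeded its reticular counterpart by at least 10.2 times per unit length. The treated ratios lay above the control ratios in both lines, which also follows from the choice of *GPAT3* by its rise and is no further result.

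**Figure D2:**
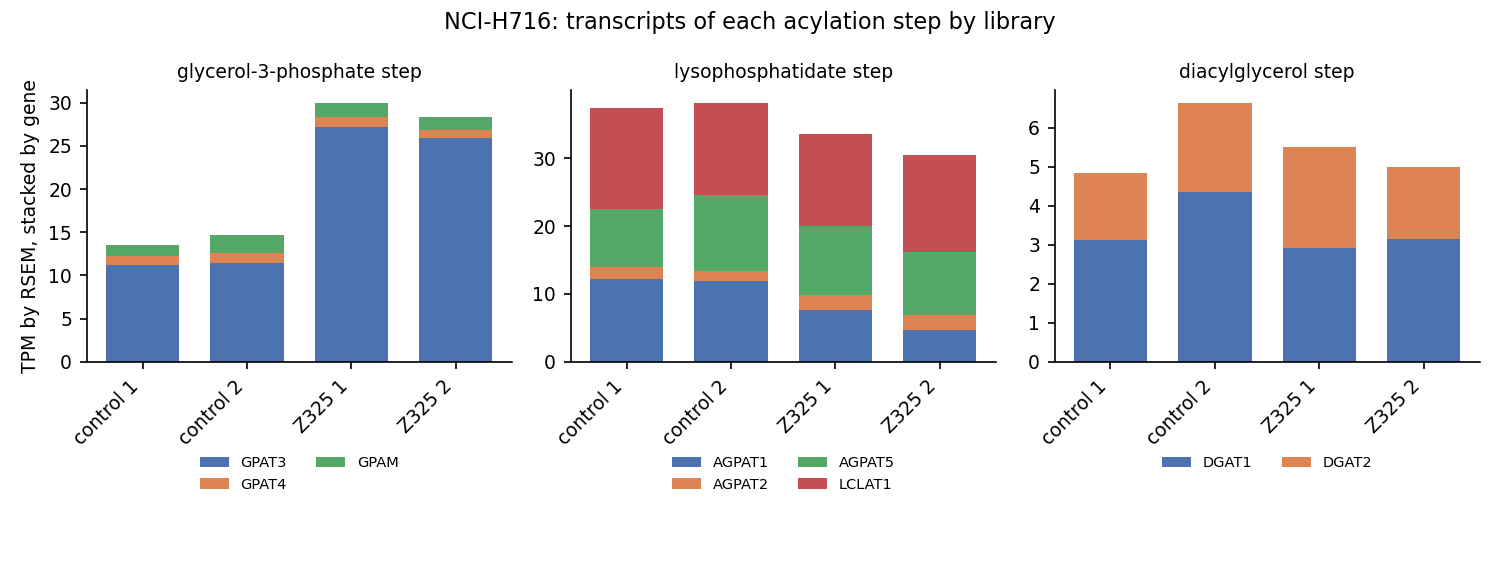
Bars give the summed TPM of the members at each acylation step in each NCI-H716 library, stacked by gene, with a separate vertical axis starting at 0 for each step. The first step read 13.6 and 14.7 TPM in control and 29.9 and 28.3 TPM in treated libraries, with *GPAT3* as the largest segment throughout, and the blue *AGPAT1* segment of the second step was shorter in both treated libraries.

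At the second step, *AGPAT1* had the largest fitted difference between treated and control NCI-H716 cells. *AGPAT1* (ENSG00000204310, chromosome 6, 32168212 to 32178096, minus strand) encodes an acyltransferase of the endoplasmic reticulum that is found in most tissues. It read 29.5 and 27.8 CPM in control and 19.3 and 11.96 CPM in treated libraries. Both treated libraries lay below both controls, and the treated pair was further apart than the control pair. The log2 fold change was -0.88 (SE 0.26, interval -1.45 to -0.31). Its unadjusted p of 0.00593 became 0.160 after adjustment over all 14142 genes by edgeR, so it did not pass the threshold of 0.05. It was called without Z325 replicate 1 (-1.25, adjusted p = 0.00136 by edgeR), a fit in which 9.26% of all genes were called, and was -0.55 at the other end of the fits without 1 library. *AGPAT1* shares 30.2% of its exon bases with *PPT2-EGFL8* on the other strand, and the counting is not stated to use strand, so its value is uncertain. *PPT2-EGFL8* itself had 0 to 4 counts per library.

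The remaining members of this step showed no change past the threshold. *LCLAT1* (ENSG00000172954, chromosome 2, 30447226 to 30644225, plus strand), known for acylating lysocardiolipin and lysophosphatidylinositol as well as lysophosphatidate, read 364 and 266 CPM in HCT116 control and 273 and 260 CPM in treated libraries. In NCI-H716 it read 85.7 and 82.0 CPM in control and 85.3 and 86.7 CPM in treated libraries, with overlapping groups in both lines. Its log2 fold change was -0.24 in HCT116 (SE 0.17, interval -0.62 to 0.14, adjusted p = 0.434 by edgeR) and 0.04 in NCI-H716 (SE 0.16, -0.33 to 0.40, adjusted p = 0.932 by edgeR). The interval in NCI-H716 leaves out log2 fold changes above 0.40 or below -0.33. The difference between the lines was -0.27 (SE 0.25, adjusted p = 0.659 by edgeR).

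*AGPAT5* (ENSG00000155189, chromosome 8, 6708642 to 6761503, plus strand), a mitochondrial member, read 54.2 and 65.5 CPM in NCI-H716 control and 58.6 and 61.0 CPM in treated libraries. The treated values lay between the controls, and the log2 fold change was 0.00 (SE 0.18, interval -0.40 to 0.40, adjusted p = 0.999 by edgeR). *AGPAT2* (ENSG00000169692, chromosome 9, 136673143 to 136687457, minus strand), the isoform whose loss causes congenital generalized lipodystrophy, was scarce, at 2.80 and 2.33 CPM in control and 3.44 and 3.37 CPM in treated libraries. Both treated values lay above both controls, but the log2 fold change of 0.40 had an SE of 0.42 (interval -0.53 to 1.33, adjusted p = 0.672 by edgeR) on 24 to 67 counts per library.

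The summed TPM of the 4 second-step members in NCI-H716 was 37.4 and 38.1 in control and 33.5 and 30.4 in treated libraries, a ratio of the means of 0.847. *AGPAT3* and *AGPAT4* are outside the set and not in this sum. *AGPAT1* supplied 32.0% ± 1.03 of the sum in control and 19.1% ± 5.07 in treated cells (SD, n = 2). *LCLAT1* went from 37.5% to 43.6%, *AGPAT5* from 26.3% to 30.5% and *AGPAT2* from 4.19% to 6.86%. Because shares sum to a whole, the larger shares of these 3 genes go with the smaller share of *AGPAT1*. In NCI-H716 control cells the first-step members summed to less TPM than those of the second, 14.1 against 37.7, and in treated cells the sums were 29.1 and 32.0 TPM.

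The triglyceride-forming step differed by less than its spread. *DGAT1* (ENSG00000185000, chromosome 8, 144314584 to 144326910, minus strand), the main enzyme of dietary fat re-esterification in the gut, read 5.98 and 7.95 CPM in NCI-H716 control and 7.03 and 5.78 CPM in treated libraries. *DGAT2* (ENSG00000062282, chromosome 11, 75759512 to 75801535, plus strand), which belongs to an unrelated protein family and also works at lipid droplets, read 4.85 and 6.21 CPM in control and 7.41 and 5.33 CPM in treated libraries. The groups overlapped for both genes. The log2 fold change was -0.12 for *DGAT1* (SE 0.31, interval -0.81 to 0.57, adjusted p = 0.882 by edgeR). For *DGAT2* it was 0.20 (SE 0.34, interval -0.54 to 0.95, adjusted p = 0.805 by edgeR). The summed TPM of the pair was 5.74 ± 1.27 in control and 5.26 ± 0.368 in treated cells (SD, n = 2), with *DGAT1* at 65.3% ± 0.879 and 57.8% ± 7.13 of it. On 64 to 115 counts per library, both intervals still hold changes of more than 0.5 on the log2 scale in either direction.

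**Figure D3:**
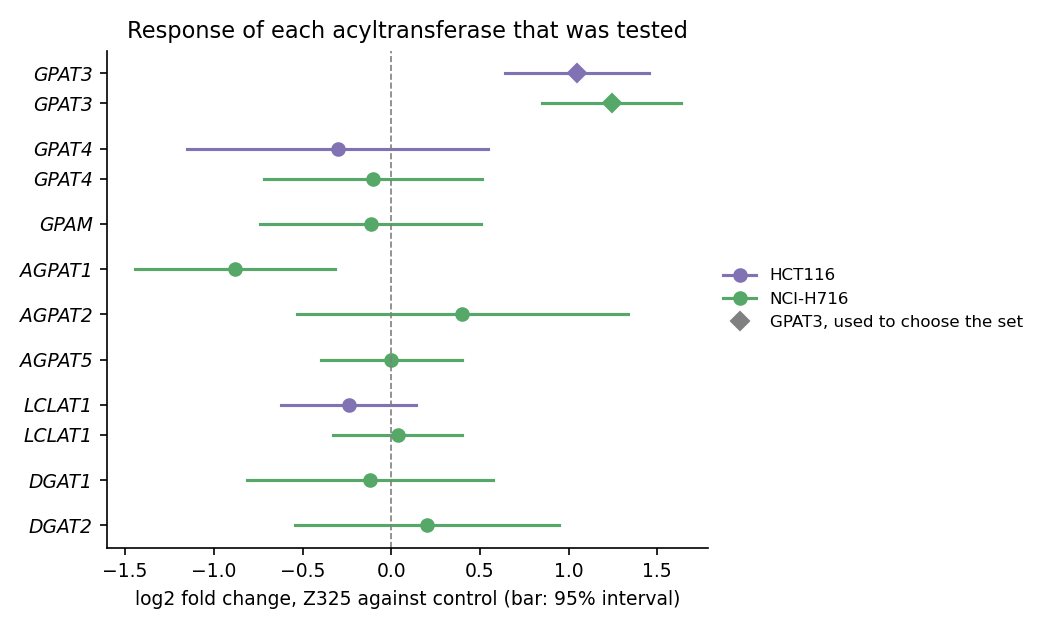
The horizontal axis gives the log2 fold change of Z325 against control for each acyltransferase that passed the low-count filter, with its 95% interval from edgeR as a bar, in purple for HCT116 and green for NCI-H716; diamonds mark *GPAT3*, whose change chose the set. *GPAT3* sat at 1.05 and 1.24, drawn as a description with no test. Of the other genes, *AGPAT1* sat at -0.88 with an interval below 0 (adjusted p = 0.160 by edgeR), and the remaining intervals included 0.

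Of the other 8 members, none was called at an adjusted p under 0.05 by edgeR in either line. In HCT116, 2 of the other 5 listed members, *GPAT4* and *LCLAT1*, passed the low-count filter, and 0 of them was called, against 5.78% of all 6491 genes tested. Neither had both treated libraries above both controls (24.8% of genes did) or both below (29.0%). In NCI-H716 all 8 passed and 0 were called, against 0.502% of 14142 genes, and 1, *AGPAT1*, had an unadjusted p under 0.05, against 16.9% of all genes. In the same line 1 of the 8 had both treated libraries above both controls, against 24.3% of genes, and 1 had both below, against 25.1%. DESeq2 called neither *GPAT4* nor *LCLAT1* in HCT116. In NCI-H716 it called none of *GPAM*, *AGPAT1*, *AGPAT5* and *LCLAT1*, and it gave no adjusted p for *GPAT4*, *AGPAT2*, *DGAT1* and *DGAT2*. The median log2 fold change of the other 8 members was -0.05 in NCI-H716, beside -0.01 over all genes tested. In HCT116 the median of *GPAT4* and *LCLAT1* was -0.27, beside -0.03 over all genes tested. At 2 libraries against 2, an exact permutation test of a single gene cannot go below p = 0.333.

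The members spanned a wide range of levels in NCI-H716 control cells. On the TPM scale, which corrects for transcript length, the order was *LCLAT1* at 14.1 ± 0.990 (SD, n = 2), *AGPAT1* at 12.1 ± 0.233, *GPAT3* at 11.3 ± 0.163, *AGPAT5* at 9.94 ± 1.85, *DGAT1* at 3.75 ± 0.877, *DGAT2* at 1.99 ± 0.389, *GPAM* at 1.72 ± 0.608, *AGPAT2* at 1.58 ± 0.141 and *GPAT4* at 1.09 ± 0.042. *GPAT3* and *AGPAT5* overlapped between libraries, as did *DGAT2* and *GPAM*, and *GPAM* and *AGPAT2*. In treated cells *GPAT3* read 27.1 and 25.9 TPM, above every other member.

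In HCT116 control cells, TPM computed from the listed genes put *LCLAT1* at 146 and 102, *GPAT3* at 58.9 and 61.0 and *GPAT4* at 4.31 and 2.95. In treated cells *GPAT3*, at 99.8 and 136 TPM, lay above *LCLAT1*, at 97.3 and 99.4 TPM, with the nearest values of the genes 99.8 and 99.4 TPM. To set the lines side by side, TPM was also scaled over the 28015 genes present in both sets of tables. On that scale the control mean of *GPAT3* was 59.9 ± 1.52 in HCT116 and 28.4 ± 0.129 in NCI-H716 (SD, n = 2), and that of *LCLAT1* was 124 ± 31.1 and 35.4 ± 3.15. *GPAT4* was 3.63 ± 0.961 and 2.73 ± 0.055. The tables of the lines were made in different ways, so these differences between lines cannot be told apart from that processing.

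*AGPAT1* and *DGAT1* were listed at 0 in each of the 4 HCT116 libraries, and *AGPAT5* at 0, 0, 0 and 2 counts. These values are not read here as absence, because expressed neighbours of some members were also at 0. Among genes within 300 kb of *AGPAT1* that had at least 3 TPM in NCI-H716 control cells, 7 of 7 were at 0 in HCT116, among them *RNF5*, a ubiquitin ligase, and *NELFE*, a subunit of a transcription elongation factor. Around *DGAT1*, 3 of 13 such neighbours were at 0, and these were the 3 on its right side nearest to it: *SLC52A2*, *CPSF1* and *SLC39A4*. *BOP1*, the nearest such gene to the left of *DGAT1*, had 1344 counts and *VPS28*, 105 kb to the right, had 246. The 1 such neighbour of *AGPAT5*, *MCPH1*, had 1746 counts. Over all listed genes with at least 3 TPM in NCI-H716 control cells, 314 of 4070 (7.71%) had at most 3 HCT116 counts in all, and around *GPAT3* and *GPAT4* 0 of 5 did. What set these genes to 0 was not tested.

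**Figure D4:**
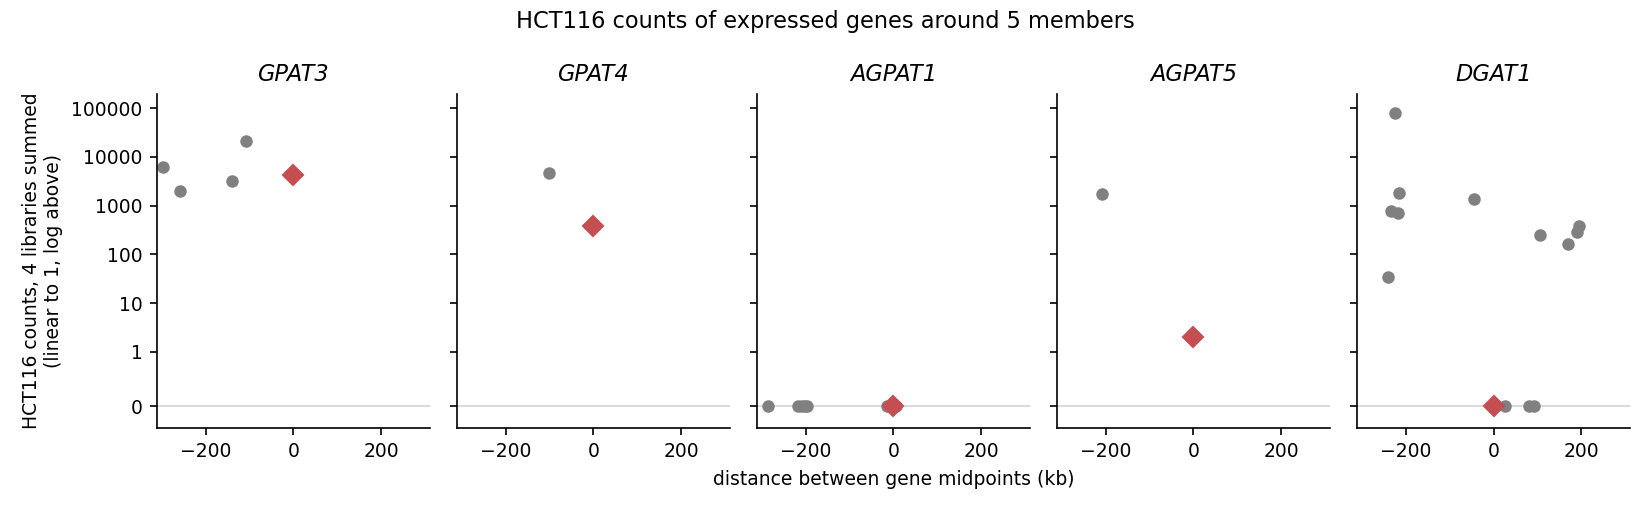
Each grey point is a gene within 300 kb of the member named above the panel with at least 3 TPM in NCI-H716 control cells, and the red diamond is the member; the horizontal axis is the distance between gene midpoints in kb and the vertical axis the counts summed over the 4 HCT116 libraries (linear to 1, logarithmic above). All 7 neighbours of *AGPAT1* and 3 of 13 neighbours of *DGAT1* were at 0, while the neighbours of *GPAT3* had 2040 to 20868 counts.

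The genes around these enzymes in glycerolipid metabolism were taken from 11 lists of 105 genes in all, none of them a member. In HCT116, 44 were listed and 36 tested, with a median log2 fold change of -0.12 beside -0.03 over all genes tested; 13 were positive and 23 negative. In NCI-H716, 76 were tested, with a median of -0.03 beside -0.01, 36 positive and 40 negative. In HCT116 0 were called higher (background 2.83%) and 2 lower (2.94%), and in NCI-H716 1 was called higher (0.403%) and 0 lower (0.099%), by edgeR at an adjusted p under 0.05. At an unadjusted p under 0.05, 0 were higher and 7 lower in HCT116 (11.2% and 12.7% of all genes). In NCI-H716, 8 were higher and 11 lower (7.59% and 9.27%).

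*PPARA*, the nuclear receptor that drives fatty acid oxidation genes, was the gene called higher in NCI-H716. It went from 5.88 ± 0.602 to 16.0 ± 2.57 CPM (SD, n = 2), a log2 fold change of 1.45 (SE 0.27, adjusted p = 0.0494 by edgeR), and was not called without control replicate 1 (1.35, adjusted p = 0.267 by edgeR). It lies outside the HCT116 table used here. *CEBPB*, a transcription factor of early fat cell differentiation, had a log2 fold change of 1.499 but an adjusted p of 0.0760 by edgeR (0.0113 by DESeq2). *SREBF1*, the regulator of fatty acid synthesis genes, had one of -0.87 with an adjusted p of 0.118 by edgeR. *PPARG*, the master regulator of fat cells, was at 0.12 in HCT116 and 0.17 in NCI-H716. *CEBPB*, *SREBF1* and *AUP1*, a lipid droplet protein, were named after their values were seen.

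Both genes called lower were called in HCT116. *PTDSS1*, which makes phosphatidylserine by exchanging the head group of phosphatidylcholine rather than from CDP-diacylglycerol, fell from 189 ± 1.004 to 94.0 ± 8.80 CPM (SD, n = 2), a log2 fold change of -1.01 (SE 0.15, adjusted p = 0.0114 by edgeR). In NCI-H716 it stood at 44.7 ± 0.739 and 42.0 ± 4.40 CPM, a log2 fold change of -0.09 (SE 0.18). The difference between the lines was -0.91 (SE 0.23, adjusted p = 0.161 by edgeR) and did not pass the test. *ABHD6*, a monoacylglycerol lipase, fell from 38.4 ± 4.33 to 17.4 ± 2.30 CPM, a log2 fold change of -1.13 (SE 0.26, adjusted p = 0.0419 by edgeR). In NCI-H716 *ABHD6* was at 0.07 (SE 0.39), and the difference of -1.18 (SE 0.49) did not pass either (adjusted p = 0.307 by edgeR). Without HCT116 control replicate 1 or 2, which leaves a single control library, neither gene was called. The log2 fold changes in these fits were -1.02 and -1.01 for *PTDSS1* and -1.25 and -1.03 for *ABHD6*.

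None of the other 8 lists held a gene called by edgeR in either line, while DESeq2 called 3. By DESeq2, *GPD1L* was higher (adjusted p = 0.0285) and *HILPDA* lower (adjusted p = 0.0423) in NCI-H716. *AUP1* was lower in HCT116 (log2 fold change -0.65, adjusted p = 0.0476 by DESeq2). Over all genes, DESeq2 called 4.87% of 14822 in HCT116 and 1.0% of 31956 in NCI-H716. In the list that supplies glycerol 3-phosphate, the substrate of GPAT3, *GPD1L* was at 0.85 in NCI-H716 (SE 0.21, adjusted p = 0.118 by edgeR) and -0.35 in HCT116 (SE 0.27). *GPD2*, the mitochondrial glycerol-3-phosphate dehydrogenase, was at -0.46 in HCT116 and 0.25 in NCI-H716. Among the other steps to and from phosphatidate, all 6 genes tested in NCI-H716 had adjusted p over 0.05, with 4 positive. At an unadjusted p under 0.05 by edgeR, 3 were higher and 1 lower (7.59% and 9.27% of all genes). The 3 higher ones, *LPIN1*, *LPIN2* and *ABHD4*, were named after their values were seen and stood at 0.54, 0.66 and 0.78. *LPIN1* was at 0.59 in HCT116 (SE 0.33, adjusted p = 0.313 by edgeR). *PLPP3*, a lipid phosphate phosphatase, was at -1.02 in NCI-H716 (SE 0.33, adjusted p = 0.187 by edgeR), and *AGPAT4*, a further acyltransferase of the same family, at 0.94 in HCT116 (SE 0.46, adjusted p = 0.256 by edgeR). In the list of sterol and monoacylglycerol acyltransferases *SOAT1*, which esterifies cholesterol, was at -0.10 in HCT116 and 0.05 in NCI-H716, and *LPGAT1* was at 0.09 and 0.29.

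Of the lipid droplet genes, *HILPDA*, a droplet protein that inhibits lipolysis, was lower in both treated libraries of each line, with log2 fold changes of -0.61 in HCT116 (SE 0.20, adjusted p = 0.109 by edgeR) and -0.94 in NCI-H716 (SE 0.24, adjusted p = 0.126 by edgeR). *CIDEB* was at -1.49 in NCI-H716 (SE 0.36, adjusted p = 0.115 by edgeR). *PLIN2*, the droplet coat protein often taken as a marker of stored fat, was named after its values were seen and stood at 0.27 in NCI-H716 (SE 0.22). Of the lipase list, *ABHD5*, the activator of adipose triglyceride lipase, was at 0.57 in NCI-H716 (SE 0.20, adjusted p = 0.202 by edgeR) and -0.08 in HCT116 (SE 0.16). *MBOAT1*, a lysophospholipid acyltransferase, was at -0.74 in HCT116 and -0.90 in NCI-H716, with adjusted p of 0.165 and 0.124 by edgeR. The remaining genes that the naming rule selected were *ACSL3* at -0.17 and *CEPT1* at -0.20 in HCT116, *DGKB* at 0.64 in HCT116, and *SLC27A5* at -0.74, *PTPMT1* at -0.55, *PEMT* at -0.47 and *DGKE* at 0.45 in NCI-H716, none with an adjusted p under 0.05 by edgeR.

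**Figure D5:**
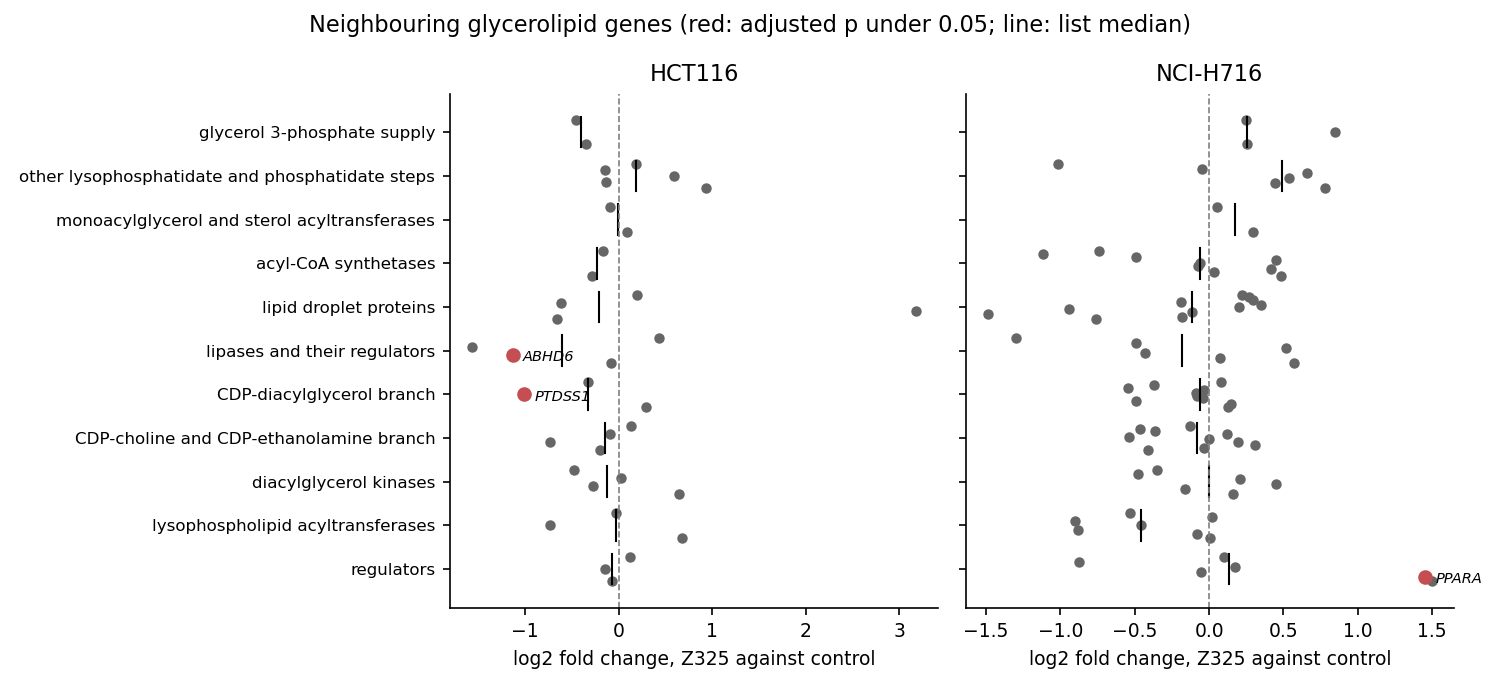
Each point is a gene of 1 of the 11 glycerolipid lists, placed by its log2 fold change of Z325 against control in HCT116 (left) and NCI-H716 (right); black lines are list medians and red points have an adjusted p under 0.05 by edgeR. The red points are *ABHD6* at -1.13 and *PTDSS1* at -1.01 in HCT116 and *PPARA* at 1.45 in NCI-H716.

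The 5 genes whose pattern over the 8 libraries was most like that of *GPAT3* were *UGDH*, *CLGN*, *STC2*, *ME1* and *ABCB6*. Likeness was the Euclidean distance between log2 CPM values centred on the mean of each line, over 5013 genes tested in both lines, and the distances ran from 0.319 for *UGDH* to 0.386 for *ABCB6*. *UGDH*, which makes UDP-glucuronic acid, had log2 fold changes of 0.88 in HCT116 and 1.33 in NCI-H716, beside 1.05 and 1.24 for *GPAT3*. *ME1*, the cytosolic malic enzyme that yields NADPH, had 1.24 and 1.34. *CLGN*, a chaperone of the endoplasmic reticulum, had 0.96 and 1.30, *STC2*, a secreted glycoprotein, 1.17 and 1.14, and *ABCB6*, a porphyrin transporter, 1.74 and 1.13. With Pearson's correlation in place of the distance, 2 of these 5, *UGDH* and *ME1*, were again among the nearest 5. Of the other members only *GPAT4* and *LCLAT1* were tested in both lines, and neither was among the 5.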

How the data were processed

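RNA of HCT116 and NCI-H716 cells, control or Z325, had been sequenced in 8 libraries of full-length amplified cDNA. For NCI-H716 the authors deposited RSEM expected counts, TPM and FPKM per gene. For HCT116 the authors deposited unnormalized read counts with gene positions and exon lengths, in a table that ends here at base 4587469 of chromosome 9, so its totals cover that part of the genome. Chromosomes 1 to 8 each listed at least 99.84% of GENCODE v44 genes, and 4 broken lines were left out. The submitters' processing notes name Bowtie2 2.5.0, featureCounts and hg38, while the paper's methods name STAR and RSEM. How reads shared between overlapping genes were counted is not given in the sources used here.

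Symbols came from GENCODE v44 (62666 of 63241 identifiers). Expected counts were rounded. Each line was fitted alone with edgeR 4.0.16 (TMM, filterByExpr, quasi-likelihood test, R 4.3.3), with Benjamini-Hochberg adjustment over all genes tested. The biological coefficients of variation were 0.245 (HCT116) and 0.203 (NCI-H716). The response was compared between lines by the interaction over all 8 libraries on 7642 genes, of which 5 (0.0654%) passed. TPM for HCT116 was derived here from those counts and exon lengths. The intervals cover the spread between libraries as fitted, and p-values measure only that spread. Members and gene lists were chosen with earlier results of these data known. All 9 members were named, and from the lists every gene called in either line and the gene with the smallest p per list and line. Alternatives were DESeq2 1.42.0, library size scaling, other filters, limma 3.58.1 on log2(FPKM + 1), a replicate block, 1 fit of all libraries, thinning to the smallest total and leaving out each library. The steps were tested on simulated data. Figures and sequence searches used Python 3.11.15 and matplotlib 3.10.9.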

Additional observations from a re-analysis of the deposited data

Results flagged for a closer look

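Of the list genes that the naming rule selected, 2 had opposite signs in the lines, and in each line the treated and control libraries did not overlap. *GPD1L*, an enzyme that supplies glycerol 3-phosphate, had a log2 fold change of -0.35 in HCT116 and 0.85 in NCI-H716. The interaction was -1.20 (SE 0.34), with an adjusted p of 0.192 by edgeR. *ABHD5*, the activator of adipose triglyceride lipase, had -0.077 in HCT116 and 0.57 in NCI-H716, and its interaction was -0.64 (SE 0.25) with an adjusted p of 0.272 by edgeR. Neither difference between the lines passed the test. *SELENOI*, an ethanolamine phosphotransferase outside the naming rule, had the same kind of pattern at 0.13 in HCT116 and -0.13 in NCI-H716, and its difference was not tested. The background for the interaction was 0.0654% of 7642 genes called. Groups without overlap were common: in HCT116 24.8% of all genes tested had both treated libraries above both controls and 29.0% both below. In NCI-H716 the shares were 24.3% and 25.1%. The share of all genes with opposite patterns in the lines was not computed.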

How the results depend on the processing

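The log2 fold change of *GPAT3* kept its direction under every alternative run, and the fits without 1 library gave 0.90 to 1.20 in HCT116 and 1.19 to 1.32 in NCI-H716. No other member was called in HCT116 under any alternative. In NCI-H716 the count of called members became 1 with no filter on low counts (*AGPAT1*, -0.86, adjusted p = 0.0301 by edgeR), 1 with a replicate block (-0.91, adjusted p = 3.9e-05 by edgeR) and 0 to 1 in the fits without 1 library. Of all NCI-H716 genes, 2.43% were called with no filter and 16.9% with the replicate block, against 0.502% in the main fit. The replicate numbers share only a number: deviations of same-numbered libraries correlated at -0.0308 in HCT116 and 0.198 in NCI-H716, and 2 pairs do not establish a pairing.

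Counts of called list genes moved more, and the share of all genes called moved as well. In HCT116 that share was 5.78% in the main fit, 0% by limma, 7.65% after thinning and 5.99% in the fit of all 8 libraries. In NCI-H716 it was 0.502% in the main fit, 1.0% by DESeq2, 2.43% with no filter and 0.0495% by limma. The replicate block called 16.9% there and the fit of all 8 libraries 0.249%. In HCT116, genes called lower numbered 0 by limma, 1 after thinning, 1 in the fit of all 8 libraries and 0 to 4 in the fits without 1 library. In NCI-H716, genes called higher numbered 3 by DESeq2, 3 with no filter, 0 by limma, 7 with the replicate block, 0 in the fit of all 8 libraries and 0 to 3 without 1 library. Genes called lower there numbered 1 by DESeq2, 5 with no filter, 11 with the replicate block and 0 to 10 without 1 library. Over all genes, limma called 0 in HCT116, with the fits without control replicate 1 and 2 calling 44 and 23 and those without Z325 replicate 1 and 2 calling 971 and 1076. In NCI-H716, DESeq2 called 320, no filter 777, the replicate block 2397, limma 7, the fit of all 8 libraries 19, and the fits without 1 library 38 to 1386.

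The direction turned in 21 cases, all for values that missed the threshold. By limma *GPAT4* became 0.029, *AGPAT4* -0.21 and *SOAT1* -0.0035 in NCI-H716. After thinning *DGAT1* became 0.083 and *ABHD6* -0.032 there. Without 1 library in NCI-H716, *GPAM* ran from -0.44 to 0.30, *AGPAT5* from -0.12 to 0.15, *DGAT1* from -0.31 to 0.10, *DGAT2* from -0.039 to 0.44, *ABHD6* from -0.33 to 0.69, *ACSL3* from -0.098 to 0.20, *PTDSS1* from -0.19 to 0.023 and *SOAT1* from -0.066 to 0.19. Without 1 library in HCT116, *LPGAT1* ran from -0.13 to 0.34, *PLPP3* from -0.19 to 0.66, *PPARG* from -0.059 to 0.29 and the *GPAT4* interaction from -0.44 to 0.087. The cause was not tested. Low counts limit *AGPAT2*, *DGAT1*, *DGAT2* and *GPAT4*.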
